A study of Mus musculus with 8 samples.

Results

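The miR-148 and miR-152 family (miR-148a-3p, miR-148b-3p and miR-152-3p) and miR-378a-3p are described here in exosomes, small vesicles shed by cells, from mouse plasma and cerebrospinal fluid (CSF). These 4 miRNAs were picked by name, with their DOCA-salt to baseline values already known, out of 1960 mature miRNAs listed in both fluids. All 4 had counts above 0 in every library and passed the filter on low counts in both fluids. The mice were adult and wild-type. A baseline mouse was untreated, and a DOCA-salt mouse had received deoxycorticosterone acetate with salt, a mineralocorticoid treatment that raises blood pressure. The groups were baseline females, DOCA-salt females, baseline males and DOCA-salt males, each with 1 library from plasma and 1 from CSF, 8 in all and all labelled batch 1. The labels give 8 mice but do not tie mice or pools to libraries, so the spread between mice of a group was not measured and p-values compare libraries that also differ in sex, treatment or both.

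A miRNA is a short RNA that guides the Argonaute protein to messenger RNAs, mainly through its seed near the 5′ end, and lowers their stability or translation. miR-148a is abundant in liver, where it represses the LDL receptor and the cholesterol exporter ABCA1, and the family is known for repressing DNA methyltransferases. miR-378a is abundant in muscle and other tissues rich in mitochondria, and is encoded within Ppargc1b, the gene of the metabolic coactivator PGC-1β. Each precursor hairpin holds a 5p and a 3p arm, of which often only 1 accumulates.

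The mature sequences of the family members show why they are read as a group, since the seed (bases 2 to 8, in capitals) is the same in all 3. They are from RefSeq, build GRCm38.p6.
miR-148a-3p: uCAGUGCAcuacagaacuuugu
miR-148b-3p: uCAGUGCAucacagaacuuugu
miR-152-3p: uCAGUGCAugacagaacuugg
Among 1679 mature mouse miRNAs in that table, 3 had this seed, the family members themselves. Counted from the 5′ end, miR-148b-3p differed from miR-148a-3p by C9U and U10C. miR-152-3p differed by C9U, U10G and U20G over the 21 positions compared. miR-378a-3p is named only. Its namesakes miR-378b, miR-378c and miR-378d are shown because their counts bear on how far miR-378a-3p can be read, with a run of 14 bases common to all of them in capitals.
miR-378b: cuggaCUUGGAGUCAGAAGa
miR-378c: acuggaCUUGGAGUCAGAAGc
miR-378d: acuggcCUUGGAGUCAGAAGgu

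On mm10, miR-148a-3p lies at chr6:51269829-51269850 on the minus strand, outside any annotated host gene. miR-148b-3p lies at chr15:103285185-103285206 on the plus strand, in an intron of Copz1, which encodes a subunit of the COPI vesicle coat. miR-152-3p lies at chr11:96850439-96850459 on the plus strand, in an intron of Copz2, the paralog of Copz1. miR-378a-3p lies at chr18:61397838-61397858 on the minus strand, in an intron of Ppargc1b. All 3 host genes are transcribed from the same strand as the miRNA they hold.

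Counting was by unique molecular identifiers (UMIs), short random tags that mark each RNA before amplification. Plasma libraries held 158572 to 337240 UMIs at 3.68 to 6.19 reads per UMI. CSF libraries held 237878 to 1082504 at 1.19 to 1.69. The 4 members together took 0.282% to 0.683% of plasma and 0.366% to 0.895% of CSF UMIs. A list of 7 striated muscle miRNAs took 0.290% to 1.5% of plasma and 36.3% to 56.6% of CSF UMIs, with none of the 7 at 0 in any library. A list of 7 erythrocyte miRNAs took 9.66% to 16.7% of plasma and 1.81% to 4.85% of CSF UMIs. Intervals given below are 95% intervals for counting error only. In body fluids, fewer releasing cells of a type and less RNA per cell cannot be told apart.

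miR-148a-3p was the most abundant member in every library. In plasma the baseline female had 355 UMIs, the DOCA-salt female 792, the baseline male 402 and the DOCA-salt male 1468. These are 1268, 2348, 2535 and 4818 UMIs per 1000000 of the library (CPM). In CSF the females had 838 UMIs at baseline and 1296 with DOCA-salt, and the males 1056 and 2663. The CSF levels were 3523, 4268, 1402 and 2460 CPM in the same order. It ranked from 32 to 64 by abundance in plasma and from 27 to 41 in CSF. The DOCA-salt male was the highest plasma library, and both female libraries stood above both male libraries in CSF on this scale.

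miR-152-3p, the member hosted by Copz2, had the next highest UMI count of the family in every library. In 3 of the 4 plasma libraries, all but that of the DOCA-salt female, it lay within counting error of miR-148b-3p. In plasma the females had 194 UMIs (693 CPM) at baseline and 347 (1029 CPM) with DOCA-salt. The baseline male had 151 (952 CPM) and the DOCA-salt male 219 (719 CPM). In CSF the females had 409 UMIs at baseline and 574 with DOCA-salt (1719 and 1890 CPM), and the males 577 and 1033 (766 and 954 CPM). Its plasma levels did not order the libraries by treatment or by sex.

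miR-148b-3p, hosted by Copz1, had the lowest UMI count of the family in every library, but by read counts it exceeded miR-152-3p in baseline male plasma, at 22.5% against 20.2% of the family. In plasma the females had 173 UMIs (618 CPM) at baseline and 172 (510 CPM) with DOCA-salt, and the males 134 (845 CPM) and 212 (696 CPM). In CSF the females had 120 UMIs at baseline and 165 with DOCA-salt (504 and 543 CPM), and the males 230 and 394 (305 and 364 CPM). The plasma range was narrow beside that of miR-148a-3p, which spanned 1268 to 4818 CPM.

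miR-378a-3p was the scarcest member in plasma and outranked miR-152-3p in CSF. In plasma the females had 67 UMIs (239 CPM) at baseline and 139 (412 CPM) with DOCA-salt. The baseline male had 30 (189 CPM, interval 128 to 270) and the DOCA-salt male 182 (597 CPM, interval 514 to 691). In CSF the females had 560 UMIs at baseline and 683 with DOCA-salt (2354 and 2249 CPM), and the males 893 and 1165 (1186 and 1076 CPM). It ranked from 158 to 390 in plasma and from 40 to 53 in CSF. Its reads per UMI were 2.33 to 3.27 in plasma, against library medians of 4.05 to 7.20. miR-148a-3p had 3.93 to 6.55, also below the median of its library in each case but by less.

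**Figure D1:**
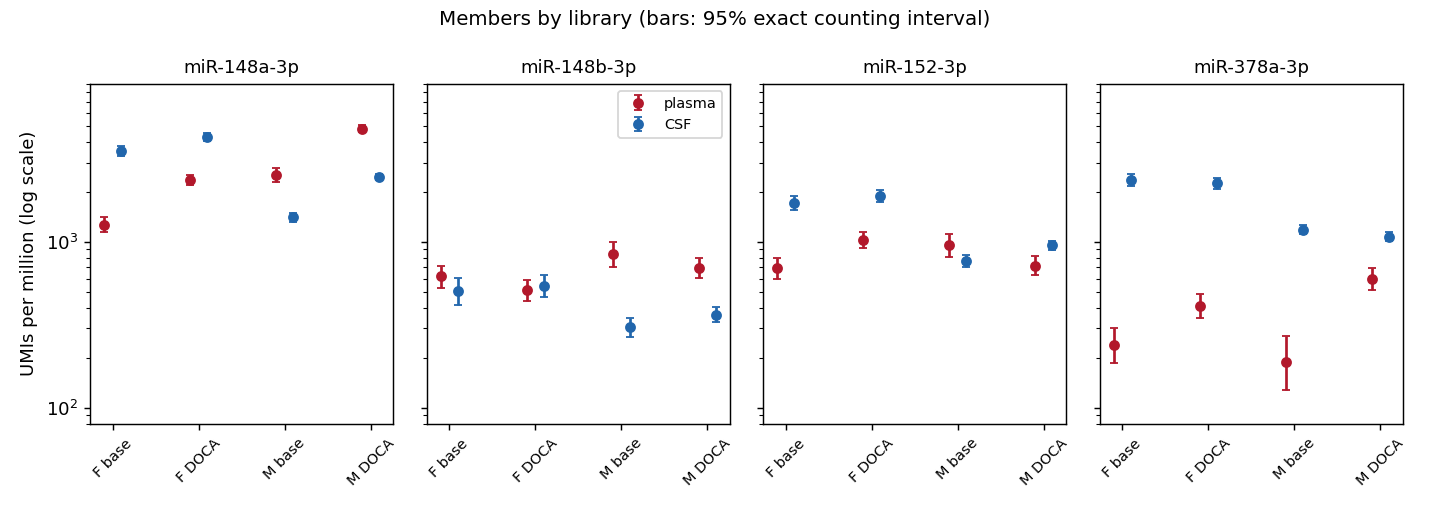
CPM on a log scale for each member in each of the 8 libraries (F, female; M, male; base, baseline; DOCA, DOCA-salt), plasma in red and CSF in blue, with 95% counting intervals as bars. Plasma values of miR-378a-3p ran from 189 to 597 and CSF values from 1076 to 2354, while the fluids overlapped for the other 3 members on this unscaled axis.

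Counts of the miR-378 namesakes ran close to those of miR-378a-3p. miR-378b had 0.806 to 0.967 UMIs for each UMI of miR-378a-3p in plasma and 0.571 to 0.662 in CSF. miR-378c had 0.747 to 0.933 in plasma and 0.525 to 0.671 in CSF. miR-378d had 0.209 to 0.313 in plasma and 0.0839 to 0.125 in CSF. Whether the alignment shared reads among these near-identical miRNAs is not given in the sources used here. The level of miR-378a-3p by itself is therefore uncertain. Values with all 4 rows summed are given for the fold change between fluids and for the DOCA-salt pairs. Ratios within a library, including those of the arms, use the miR-378a-3p row alone.

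The makeup of the family does not depend on scaling between libraries. miR-148a-3p made up 61.4% ± 11.7 of the family's UMIs in plasma and 61.7% ± 3.69 in CSF (SD, n = 4 each). Its plasma share in the females was 49.2% at baseline (interval 45.5% to 52.9%) and 60.4% with DOCA-salt, and in the males 58.5% at baseline and 77.3% with DOCA-salt (interval 75.4% to 79.2%). The CSF shares were closer together, from 56.7% to 65.1%. miR-148b-3p made up 24.0% and 19.5% in the baseline plasma libraries and 13.1% and 11.2% in the DOCA-salt plasma libraries, female first. In CSF it made up 8.11% to 12.3%. The plasma share of miR-152-3p was 11.5% in the DOCA-salt male and 22.0% to 26.9% in the other plasma libraries, against 25.3% to 31.0% in CSF.

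**Figure D2:**
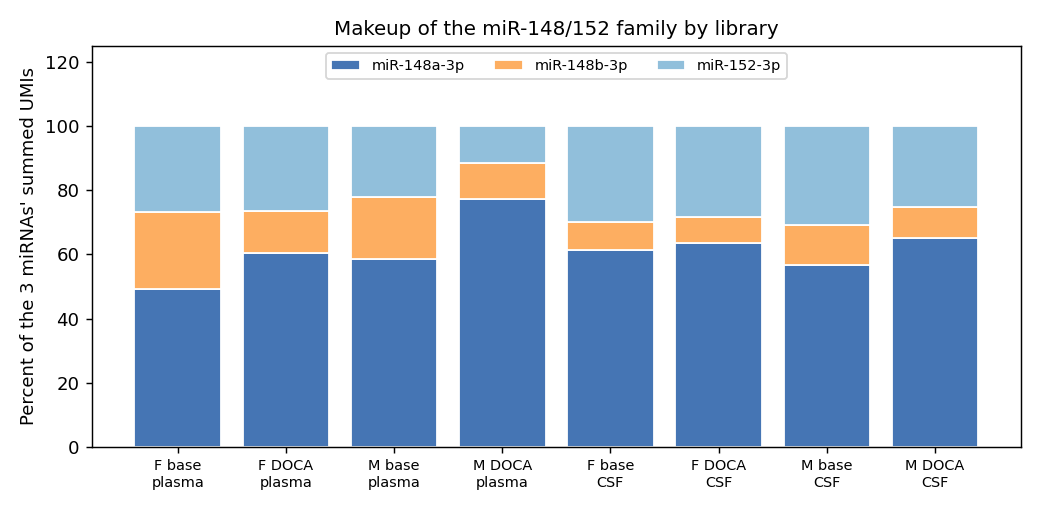
Percent of the UMIs of miR-148a-3p, miR-148b-3p and miR-152-3p that each took in each library, as stacked bars from 0 to 100. The share of miR-148a-3p ranged from 49.2% to 77.3% over the plasma libraries and from 56.7% to 65.1% over the CSF libraries.

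The fluids were compared over the 8 libraries, a contrast that did not choose the members. All 4 members were higher in CSF by edgeR's quasi-likelihood test on TMM-scaled counts (TMM, trimmed mean of M-values, scales libraries on the bulk of miRNAs). Of the 1146 miRNAs tested, 51.7% passed, 26.2% in the direction of higher in CSF. The CSF libraries all stood above the plasma libraries for each of the 4 members on TMM-scaled CPM, as they did for 22.1% of miRNAs tested. miR-378a-3p had 212 ± 112 TMM-scaled CPM in plasma and 2877 ± 91.8 in CSF (SD, n = 4 each). That is a log2 fold change of 3.75 ± 0.47 (SE), or 13.5-fold, with a Benjamini-Hochberg adjusted p of 4.34e-06 from edgeR. With the miR-378 rows summed its log2 fold change was 3.46 (adjusted p = 1.28e-05, edgeR).

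miR-152-3p went from 499 ± 155 TMM-scaled CPM in plasma to 2229 ± 290 in CSF, a log2 fold change of 2.16 ± 0.39 (adjusted p = 1.71e-04, edgeR). miR-148a-3p had 1568 ± 791 in plasma and 4922 ± 1338 in CSF. Its log2 fold change was 1.65 ± 0.46 (adjusted p = 0.00551, edgeR). miR-148b-3p had 380 ± 26.4 in plasma and 757 ± 158 in CSF, a log2 fold change of 1.00 ± 0.35 (adjusted p = 0.0226, edgeR). The call of miR-148b-3p was lost without the baseline female plasma library (0.97, adjusted p = 0.0616), without the DOCA-salt male plasma library (0.98, 0.0615) and without the DOCA-salt male CSF library (0.88, 0.0585), all by edgeR.

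The difference between fluids depended on how the libraries were scaled, and all members but miR-378a-3p lost their call under total-count scaling. With scaling to total counts, where the muscle miRNAs take up much of each CSF library, the median log2 fold change of all miRNAs moved from -0.12 to -1.72. Called miRNAs then split into 63 higher and 734 lower, against 300 higher and 293 lower with TMM. Under total-count scaling the log2 fold change of miR-378a-3p was 2.23 and still passed (adjusted p = 2.74e-04, edgeR). Those of miR-152-3p (0.63, adjusted p = 0.193, edgeR) and miR-148a-3p (0.06, adjusted p = 0.904, edgeR) did not pass, and that of miR-148b-3p turned to -0.66 (adjusted p = 0.167, edgeR). When the muscle list was left out of the totals, an alternative chosen after seeing the data, miR-378a-3p (3.05, adjusted p = 6.13e-06, edgeR) and miR-152-3p (1.45, adjusted p = 0.00309, edgeR) passed. miR-148a-3p (0.88, adjusted p = 0.0781, edgeR) and miR-148b-3p (0.19, adjusted p = 0.670, edgeR) did not. The median log2 fold change of all miRNAs was still -0.86 under that alternative, and called miRNAs split into 149 higher and 502 lower. The part of the muscle miRNAs in the CSF level of miR-378a-3p was not tested.

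**Figure D3:**
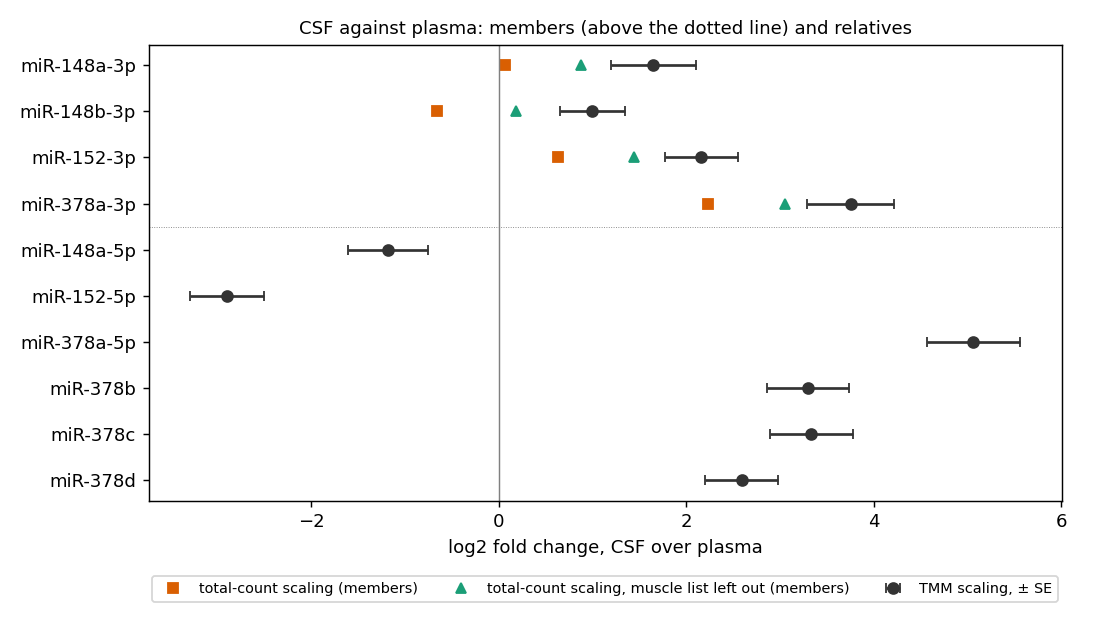
log2 fold change of CSF over plasma for the 4 members (above the dotted line) and their relatives. Black points are TMM-scaled estimates with SE bars, orange squares total-count scaling and green triangles total-count scaling without the muscle list. miR-378a-3p lay above 0 under all 3 scalings, and miR-148b-3p ranged from -0.66 to 1.00.

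Ratios within 1 library do not depend on scaling. Those between members and those of each member to its opposite arm, 10 in all and chosen after seeing the data, were compared between fluids. In 7 of the 10, CSF and plasma libraries did not overlap. Each of the 7 had the smallest p that a two-sided exact permutation test of 4 libraries against 4 can give, 0.0286. The Benjamini-Hochberg adjusted p of 0.0409 follows from that floor and from how many ratios reached it. The ratios share miRNAs, and the test did not use the matching of fluids by sex and treatment. How often ratios of other miRNAs differ was not counted, while 51.7% of single miRNAs passed between fluids by edgeR. miR-378a-3p stood higher in CSF relative to every family member. The log2 ratio of miR-148a-3p to miR-378a-3p was 2.91 ± 0.60 in plasma and 0.73 ± 0.41 in CSF (SD, n = 4 each). Against miR-378a-3p, the ratio of miR-148b-3p was lower in CSF by 7.74-fold and that of miR-152-3p by 3.32-fold. Ratios to miR-378a-3p were not computed with the miR-378 rows summed, and the counts of miR-378b to miR-378d relative to it also differed between fluids. Within the family, the ratio of miR-148b-3p to miR-152-3p was 2.33-fold lower in CSF. The ratios of miR-148a-3p to miR-148b-3p (log2 difference 0.78, exact permutation p = 0.143, adjusted 0.179) and to miR-152-3p (-0.44, p = 0.371, adjusted 0.371) did not pass.

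The arms of the precursors differed between fluids as well. The log2 ratio of miR-148a-3p to miR-148a-5p was higher in CSF by 3.01 and that of miR-152-3p to miR-152-5p by 5.04, both among the 7 that passed the exact permutation test. In CSF there were 34.1 to 95.7 UMIs of miR-152-3p for each of miR-152-5p, and in plasma 0.965 to 2.97. By edgeR, miR-152-5p was lower in CSF, with a log2 fold change of -2.90 ± 0.40 (adjusted p = 9.99e-06), while its 3p arm was higher. miR-148a-5p was likewise lower in CSF (-1.18 ± 0.42, adjusted p = 0.0264, edgeR). For miR-148b the 5p arm had 0 to 5 UMIs in CSF, so its ratio rests on very few molecules, and with read counts it did not pass (exact permutation p = 0.114). The arm ratio of miR-378a did not pass (log2 difference -1.23, exact permutation p = 0.229, adjusted 0.254). Both arms of miR-378a were higher in CSF, miR-378a-5p by a log2 fold change of 5.06 ± 0.50 (adjusted p = 4.34e-07, edgeR).

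The namesakes of miR-378a-3p were also higher in CSF, though they may hold the same reads. The log2 fold changes were 3.30 ± 0.44 for miR-378b, 3.33 ± 0.44 for miR-378c and 2.59 ± 0.38 for miR-378d, with adjusted p from 7.18e-06 to 2.48e-05 by edgeR.

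Males were compared with females within each fluid, with treatment as a term. Of the 4 members, 0 passed in either fluid by edgeR or by DESeq2, and 0 had an unadjusted edgeR p under 0.05. The background was 0.143% of 1398 miRNAs called in plasma and 5.21% of 1036 in CSF. In plasma the male to female log2 fold change of miR-148a-3p was 0.66 ± 0.43 (adjusted p = 0.798, edgeR). That of miR-148b-3p was 0.09 ± 0.47, of miR-152-3p -0.39 ± 0.49 and of miR-378a-3p -0.23 ± 0.49, the last of which turned to 0.14 under total-count scaling. With a library left out, the plasma value of miR-148a-3p ranged from 0.0099 to 1.32, that of miR-378a-3p from -1.26 to 0.53, that of miR-152-3p from -0.81 to 0.02 and that of miR-148b-3p from -0.03 to 0.15. In CSF the values were 0.07 ± 0.47 for miR-148a-3p, 0.49 ± 0.50 for miR-148b-3p, 0.06 ± 0.47 for miR-152-3p and 0.11 ± 0.47 for miR-378a-3p, all of which turned negative under total-count scaling. There they were -1.07, -0.66, -1.08 and -1.04 in that order, beside a median of -1.20 over all miRNAs. With a library left out, the CSF values ranged from -0.35 to 0.59, 0.35 to 0.73, -0.11 to 0.33 and 0.11 to 0.17. The muscle list took 38.7% and 36.3% of UMIs in the female CSF libraries and 56.6% and 49.1% in the male ones, baseline first, and its part in these values was not tested. The SE values leave differences between the sexes of well over 1.5-fold possible for each member.

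DOCA-salt was set against baseline in each fluid. The members were chosen on this contrast, so their values are a description with no test. In plasma, 2 of the 4 members, miR-148a-3p and miR-378a-3p, stood higher in both DOCA-salt libraries than in both baseline libraries on TMM-scaled CPM, 1 stood lower and 1 overlapped. Over all 1398 miRNAs, 20.2% stood wholly above and 22.5% wholly below, and edgeR called 1.07% at an adjusted p under 0.05.

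For miR-148a-3p, TMM-scaled CPM in plasma went from 1340 at baseline to 2909 with DOCA-salt in the females, and from 2194 to 4441 in the males. The ratio was 2.17 (interval 1.91 to 2.47) in females and 2.02 (1.81 to 2.27) in males, so both sexes gave nearly the same ratio. The fitted log2 fold change was 1.07 ± 0.44 (SE). Scaled to total counts, the DOCA-salt female at 2348 CPM lay below the baseline male at 2535, so the groups overlapped on that scale while both pairs kept their direction. A list of 4 liver miRNAs took 0.439% of plasma UMIs at baseline and 0.240% with DOCA-salt in the females, and 0.373% and 0.438% in the males. The liver list was thus lower in the female pair and higher in the male pair, and its part in the level of miR-148a-3p was not tested.

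For miR-378a-3p, plasma went from 253 to 511 TMM-scaled CPM in the females and from 164 to 551 in the males. The ratio was 2.02 (interval 1.5 to 2.74) in females and 3.36 (2.28 to 5.13) in males, with overlapping intervals. The fitted log2 fold change was 1.37 ± 0.49. With the miR-378 rows summed, the log2 ratios were 0.96 in females and 1.56 in males. The muscle list took 0.596% of UMIs at baseline and 0.648% with DOCA-salt in the females, and 0.290% and 1.5% in the males. On that total-count scale the ratio of miR-378a-3p was 1.72 in the females and 3.16 in the males. The part of that list in the level of miR-378a-3p was not tested.

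The other 2 family members did not share the plasma pattern of miR-148a-3p. miR-148b-3p had 653 TMM-scaled CPM at baseline and 632 with DOCA-salt in the females, and 731 and 641 in the males, with ratios of 0.968 (interval 0.779 to 1.20) and 0.877 (0.703 to 1.10). On TMM-scaled CPM both DOCA-salt libraries lay just below both baseline libraries, and both intervals include 1. Scaled to total counts, the DOCA-salt male at 696 CPM lay above the baseline female at 618. The groups of miR-148b-3p thus overlapped on that scale. miR-152-3p went from 732 to 1274 in the females, a ratio of 1.74 (1.46 to 2.09), and from 824 to 663 in the males, a ratio of 0.804 (0.650 to 0.996). The sexes thus went opposite ways for miR-152-3p, and a difference between the sexes cannot be tested with 1 library per combination.

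In CSF, 2 of the 4 members, miR-148a-3p and miR-152-3p, stood higher in both DOCA-salt libraries than in both baseline libraries. Over the 1036 miRNAs, 16.2% did so, and edgeR called 0.193%. On CPM scaled to total counts 0 of the 4 did, since the baseline female stood above the DOCA-salt male for both. miR-148a-3p went from 2347 to 2960 TMM-scaled CPM in the females and from 2029 to 3796 in the males. Its ratios were 1.26 (interval 1.16 to 1.38) and 1.87 (1.74 to 2.01). The DOCA-salt to baseline ratio of miR-148a-3p was thus above 1 in all 4 pairs, which are values on which it was chosen. The share of all miRNAs above 1 in all 4 pairs was not counted. miR-152-3p had ratios of 1.14 (1.01 to 1.3) in females and 1.33 (1.20 to 1.47) in males. miR-148b-3p had 1.12 (0.881 to 1.43) and 1.27 (1.08 to 1.5), and its groups overlapped. miR-378a-3p stood at 1568 and 1560 TMM-scaled CPM in the females and 1716 and 1661 in the males. Its ratios there were 0.994 (0.888 to 1.11) and 0.968 (0.887 to 1.06). With the miR-378 rows summed, the log2 ratios in CSF were 0.07 in females and -0.03 in males, and the fitted value turned to 0.03. The fitted log2 fold changes in CSF were 0.62 ± 0.47 for miR-148a-3p, 0.26 ± 0.50 for miR-148b-3p, 0.30 ± 0.47 for miR-152-3p and -0.03 ± 0.47 for miR-378a-3p.

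**Figure D4:**
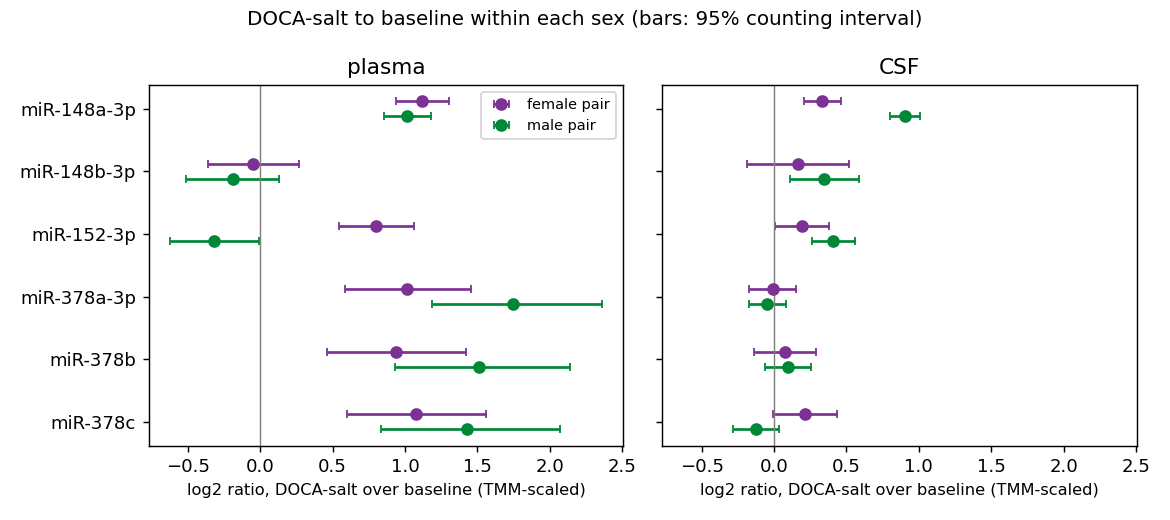
log2 ratio of DOCA-salt over baseline, TMM-scaled, in the female pair (purple) and the male pair (green) of each fluid for the members and for miR-378b and miR-378c, with 95% counting intervals. In plasma miR-148a-3p had 1.12 and 1.02 and miR-378a-3p 1.01 and 1.75, while in CSF miR-378a-3p lay at -0.01 and -0.05.

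The 2 arms of miR-148a and of miR-378a went opposite ways in plasma. The 3p arm of miR-148a had 1.41 UMIs for each of its 5p arm at baseline (interval 1.20 to 1.67) and 5.46 with DOCA-salt (4.57 to 6.57) in the females. In the males the ratio was 1.80 (1.53 to 2.13) at baseline and 6.99 (6.05 to 8.12) with DOCA-salt. The arm ratio of miR-378a went from 1.18 (0.813 to 1.70) to 6.62 (4.17 to 11) in the females and from 1.58 (0.860 to 2.97) to 8.67 (5.50 to 14.3) in the males. These ratios are within a library, so scaling between libraries does not enter them, and with read counts the baseline values were 0.576 and 0.810 and the DOCA-salt values 3.40 and 6.17 for miR-378a.

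The 5p arms themselves were lower in the DOCA-salt plasma libraries. miR-148a-5p had 251 UMIs at baseline and 145 with DOCA-salt in the females and 223 and 210 in the males, with TMM-scaled ratios of 0.562 (0.455 to 0.693) and 0.522 (0.430 to 0.633). miR-378a-5p had 57 and 21 UMIs in the females and 19 and 21 in the males, with ratios of 0.359 (0.206 to 0.601) and 0.613 (0.314 to 1.20). The arm ratio of miR-148b was also higher with DOCA-salt in both pairs, 14.4 and 34.4 in the females and 11.2 and 35.3 in the males, on 5 to 12 UMIs of the 5p arm. The pairs of miR-152 went opposite ways, since its arm ratio was 1.60 and 2.97 in the females and 2.10 and 0.965 in the males, baseline first.

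Such a shift toward the more abundant arm was seen for many precursors in plasma. Of 302 precursors with at least 50 UMIs of each arm over the plasma libraries, 38.7% had a higher ratio of the abundant to the minor arm in both DOCA-salt pairs and 17.5% a lower one. The abundant arm was the one with more UMIs summed over a fluid's libraries, DOCA-salt ones included. That choice is therefore not independent of the change counted. By the mean change of that ratio over the pairs, miR-378a ranked 4 and miR-148a ranked 9 of the 302. Both ratios include the DOCA-salt to baseline change of a member, on which the members were chosen. The ranks of miR-378a and miR-148a, in either fluid, are thus in part set by how the members were picked. In CSF, 21.6% of 162 precursors were higher and 22.8% lower. There the arm ratio of miR-148a was 12 and 34.1 in the females and 39.1 and 26.9 in the males, and that of miR-378a was 1.94 and 1.25 in the females and 1.22 and 1.12 in the males. By the same mean change, miR-148a ranked 44 and miR-378a ranked 114 of the 162 in CSF.

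**Figure D5:**
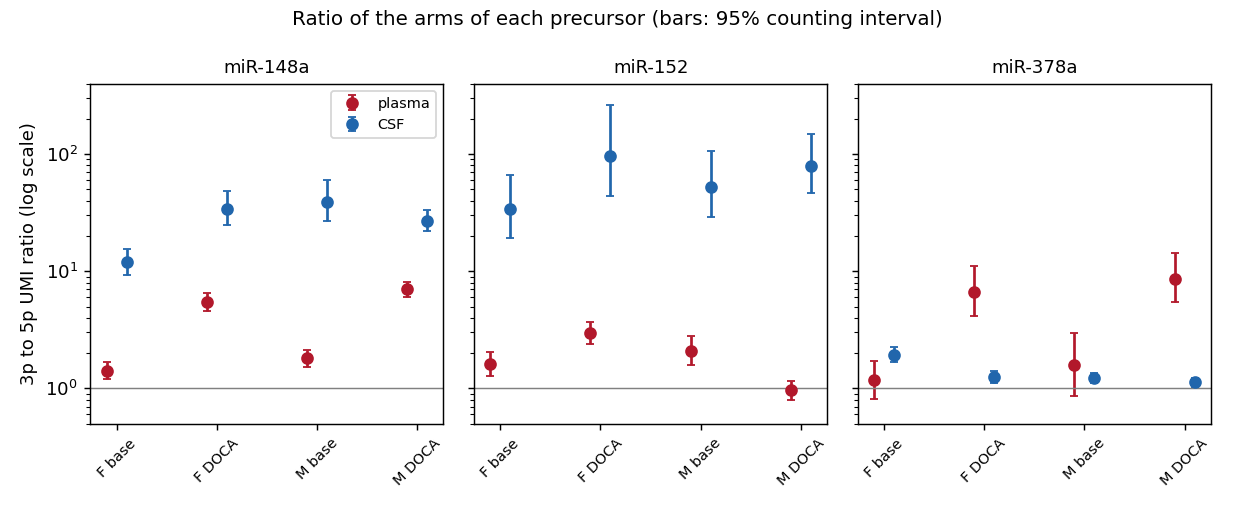
UMIs of the 3p arm for each UMI of the 5p arm of miR-148a, miR-152 and miR-378a in each library, on a log scale, plasma in red and CSF in blue, with 95% counting intervals and a line at 1. The plasma ratio of miR-378a was 1.18 and 1.58 at baseline and 6.62 and 8.67 with DOCA-salt.

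Levels of the members were compared over the 8 libraries after centring each fluid on its mean, as a description of likeness among libraries that share depth and scaling. They include the DOCA-salt values on which the members were chosen, so correlations among members restate those values in part. The Pearson correlation of log2(TMM-scaled CPM + 1) was 0.628 between miR-148a-3p and miR-378a-3p. With miR-378a-3p it was -0.189 for miR-148b-3p and 0.222 for miR-152-3p. Between family members it was 0.252 for miR-148a-3p and miR-148b-3p, 0.269 for miR-148a-3p and miR-152-3p and 0.137 for miR-148b-3p and miR-152-3p. Among 444 miRNAs with a mean of at least 20 UMIs in each fluid, the closest to miR-378a-3p were miR-378b (0.991), miR-378c (0.973) and miR-7665-3p (0.944). The closest to miR-148a-3p were miR-92b-5p (0.897), miR-7116-3p (0.860) and miR-3473d (0.779). The closest to miR-152-3p were miR-125b-2-3p (0.964), miR-22-3p (0.945) and miR-28a-3p (0.895). The closest to miR-148b-3p were miR-7058-5p (0.946), miR-1224-5p (0.943) and miR-324-5p (0.926).

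Of 16 other miRNAs known for lipid, cholesterol or mitochondrial metabolism, 13 could be tested between fluids, and 3 were higher in CSF and 0 lower by edgeR with TMM scaling, against 0 higher and 9 lower with total-count scaling. The 3 higher with TMM were miR-27b-3p (log2 fold change 1.21), miR-144-3p (1.67), which is also abundant in red cells, and miR-185-5p (1.54). Over all 1146 miRNAs tested, 300 were higher and 293 lower with TMM, against 63 and 734 with total-count scaling. With TMM the median of the list was 0.05, beside -0.12 over all miRNAs, and all 4 members lay above both. With total-count scaling the median was -1.70, beside -1.72 over all miRNAs. In the DOCA-salt comparison 0 of 14 listed miRNAs passed in plasma and 0 of 12 in CSF by edgeR or by DESeq2, with 1 in each fluid at an unadjusted edgeR p under 0.05 and medians of -0.16 and 0.25. Between the sexes 0 of 14 passed in plasma by either tool, with 0 at an unadjusted p under 0.05. In CSF 1 of 12, miR-144-3p, was higher in males by edgeR with TMM scaling (log2 fold change 1.94), while total-count scaling gave 0 higher and 1 lower. Over all 1036 miRNAs of that comparison, 33 were higher and 21 lower with TMM, against 6 and 353 with total-count scaling.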

How the data were processed

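Exosomal small RNA of 8 mouse libraries was analysed. Per the labels' protocols, libraries were made from miRNeasy extracts with the QIAseq kit, which adds UMIs, and read as single ends of 150 bp. Per the submitters' processing notes and the series text, the authors trimmed with Cutadapt 2.7, used Bowtie 1.3.0 against the miRBase, Rfam and piRNABank sets, and named mm10, GRCm38 and edgeR. The deposited UMI and read columns hold counts per mature miRNA. The deposited CPM columns hold UMIs per 1000000 of the library total, as recomputed for the members. In CSF the deposited CPM of miR-206-3p and that of miR-1a-3p appear exchanged, which leaves summed muscle shares as they are.

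Tests used R 4.3.3, edgeR 4.0.16, limma 3.58.1 and DESeq2 1.42.0, with Python 3.11.15, pandas 2.3.3 and scipy 1.17.1. After filterByExpr and TMM scaling, UMI counts were fitted over all miRNAs by edgeR's quasi-likelihood test with a Benjamini-Hochberg threshold of 0.05. The fluid fit had fluid as its only term (6 residual degrees of freedom). Sex and DOCA-salt fits within a fluid had both terms and 1 residual degree of freedom, so their errors come mostly from the trend over miRNAs. The fits were tested on simulated data. TMM-scaled CPM between fluids used factors over all 8 libraries, and within a fluid over its 4. Intervals are Clopper-Pearson for shares and conditional binomial for ratios of counts, exact in both cases. Within-library ratios added 0.5 to each count. Locations and hosts are from GENCODE M21, and sequences from RefSeq matched 3 of the 4 members.

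The members and lists were chosen with earlier results of these data known. Named miRNAs are the members, their opposite arms, miR-378b, miR-378c and miR-378d, the 3 most correlated miRNAs per member, and the most abundant called members of the metabolism list. Marker lists covered erythrocytes, striated muscle, liver, leukocytes, platelets and endothelium, neurons, choroid plexus, and adipose tissue with smooth muscle. Between fluids, by edgeR with TMM scaling, 2 of 6 tested erythrocyte miRNAs were higher in CSF and 1 lower, 4 of 4 muscle, 1 of 3 liver, 3 of 5 neuron, 1 of 2 choroid plexus and 1 of 2 adipose and smooth muscle miRNAs were higher, and 3 of 6 leukocyte and 1 of 3 platelet and endothelium miRNAs were lower. With total-count scaling the calls were 0 higher and 4 lower for erythrocytes, 4 and 0 for muscle, 0 and 2 for liver, 0 and 6 for leukocytes, 0 and 3 for platelets and endothelium, 2 and 1 for neurons, 1 and 1 for choroid plexus and 0 and 1 for adipose and smooth muscle. Over all 1146 miRNAs tested, 300 were higher and 293 lower with TMM, against 63 and 734 with total-count scaling. Alternatives changed the scaling, test, filter, counts, muscle list, terms and libraries used.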

Additional observations from a re-analysis of the deposited data

Results flagged for a closer look

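Among the 4 members and their 7 relatives, 3 miRNAs had every DOCA-salt pair move one way in plasma and the other way in CSF. The difference between fluids was not tested. Of 966 miRNAs tested in both fluids, 14.0% showed such a pattern. One of the relatives, miR-148b-5p, did not pass the count filter in CSF. The values of miR-378a-3p and miR-148b-3p are among those on which the members were chosen. For miR-378a-3p the log2 ratio of DOCA-salt to baseline was 1.014 in females and 1.75 in males in plasma, against -0.0081 and -0.0467 in CSF. For miR-378a-5p, the opposite arm, it was -1.48 and -0.707 in plasma, against 0.6232 and 0.0702 in CSF. For miR-148b-3p it was -0.0473 and -0.1895 in plasma, against 0.1648 and 0.3462 in CSF. Counting intervals include no change for both CSF ratios of miR-378a-3p, both male ratios of miR-378a-5p, both plasma ratios of miR-148b-3p and its female CSF ratio. The pattern is lost for miR-378a-5p under total-count scaling, where the male CSF ratio was -0.0228, and for miR-378a-3p with the miR-378 rows summed, where the female CSF ratio was 0.0727.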

How the results depend on the processing

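Between fluids, 60 of 69 values of the members under alternative settings kept their direction and their side of the threshold. Those that did not were under total-count scaling miR-148a-3p (0.0647), miR-152-3p (0.63) and miR-148b-3p, which reversed (-0.66). With total-count scaling and the muscle list left out, they were miR-148a-3p (0.88) and miR-148b-3p (0.19). With read counts miR-148b-3p gave 0.88. Its call was also lost without the baseline female plasma (0.97), the DOCA-salt male plasma (0.98) or the DOCA-salt male CSF library (0.88). The other omissions of 1 library kept the call, and over all omissions the value of miR-148b-3p ranged from 0.88 to 1.18. The call of miR-378a-3p held under all 18 alternatives, with log2 fold changes from 2.23 to 4.39. A block per sex and treatment, which pairs the fluids, kept the calls of all 4 members. The causes of the changes were not tested.

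Counts of called miRNAs within a fluid moved widely. For sex in plasma, 2 became 5 with DESeq2 size factors, 10 without a count filter and with total-count scaling without the muscle list, 0 with total-count scaling, DESeq2's Wald test, read counts, the muscle list left out, only the term compared and the joint fit, and 0 to 28 with a library left out. For sex in CSF, 54 became 359 with total-count scaling, 27 with DESeq2's Wald test, 34 without a filter, 5 with read counts, 21 without the muscle list, 33 with miR-378 rows summed, 31 in the joint fit, 0 with total-count scaling without the muscle list and with only the term compared, and 0 to 30 with a library left out. For DOCA-salt in plasma, 15 became 29 with DESeq2 size factors and without a filter, 1 with DESeq2's Wald test and with miR-378 rows summed, 0 with total-count scaling, read counts, the muscle list left out, only the term compared and the joint fit, and 0 to 73 with a library left out. For DOCA-salt in CSF, 2 became 4 without a filter, 0 under the other settings, and 0 to 1 with a library left out.

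The DOCA-salt log2 ratio of miR-148a-3p in the female plasma pair was 0.89 with total-count CPM and 0.90 with read counts. With read counts that of miR-148b-3p in plasma was -0.48 in females and -0.54 in males. With a library left out, the fitted plasma value of miR-152-3p ranged from -0.19 to 0.74, that of miR-148a-3p from 0.75 to 1.45 and that of miR-378a-3p from 1.07 to 1.74. The male plasma ratio of miR-378a-3p rests on 30 UMIs at baseline.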
